A study of Rattus norvegicus with 4 samples.

Results

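The genes described here are the 10 subunits of the nicotinic acetylcholine receptor for which the neuronal and the muscle form of the receptor can be set side by side. They were chosen by name, as 5 neuronal subunits (Chrna3, Chrna5, Chrna7, Chrnb2 and Chrnb4) and 5 muscle subunits (Chrna1, Chrnb1, Chrnd, Chrne and Chrng), and all 10 are among the 25810 genes listed in the counts. RNA-Seq was carried out on 2 clones of PC12, a cell line from a rat pheochromocytoma, which is a tumour of the chromaffin cells of the adrenal gland. The wtPC12 clone is labelled as wild type with low REST, and the hrPC12 clone, known earlier as PC12-27, as having high levels of REST, a repressor of neuronal genes. Each clone is represented by 2 libraries, no drug or transgene is named in the labels, and nothing there says whether the libraries came from separate cultures, so p values measure only the spread between these libraries. Each REST level is 1 clone, and an effect of REST cannot be told apart from other traits in which the clones differ.

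Nicotinic receptors are channels built from several subunits around a pore that acetylcholine opens. In autonomic ganglia and chromaffin cells, which share an origin in the neural crest, receptors with the alpha3 and beta4 subunits carry the signal of the incoming cholinergic nerve, with alpha5 as an accessory subunit, while alpha7 can form channels by itself and beta2 pairs with neuronal alpha subunits. Muscle receptors combine alpha1, beta1 and delta with gamma before innervation or with epsilon afterwards, and are gathered under the nerve ending by agrin, Lrp4, MuSK and rapsyn.

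The promoters are shown first because the neuronal and muscle genes differ in the short motifs they hold. Of the muscle genes, 5 of 5 held an E-box CAGCTG or CAGGTG, the letters bound by myogenic factors such as MyoD, between 250 bases before and 50 bases after the RefSeq transcript start, with 9 matches in all. In the neuronal genes 2 of 5 held one, with 2 matches, and over all 33469 rat promoters of the same length the share was 30.8%. At least 2 such matches were found in 3 of 5 muscle and 0 of 5 neuronal promoters, and in 6.43% of all promoters. The windows printed run from base -130 to the base before the start, and for Chrng to base +3, on the RefSeq assembly GRCr8. Capitals mark CAGCTG as well as CAGGTG (also as its reverse complement) and the N-box CCGGAA or its reverse complement, a motif known from synaptic muscle genes.
Chrna1, chr3:78877354-78877483, minus strand: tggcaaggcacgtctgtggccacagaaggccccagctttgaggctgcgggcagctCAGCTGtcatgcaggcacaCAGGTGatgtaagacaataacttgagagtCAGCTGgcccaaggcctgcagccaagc
Chrnb1, chr10:55015108-55015237, minus strand: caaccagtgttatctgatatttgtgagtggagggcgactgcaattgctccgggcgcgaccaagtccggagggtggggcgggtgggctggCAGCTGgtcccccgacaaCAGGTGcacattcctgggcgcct
Chrnd, chr9:95310186-95310315, plus strand: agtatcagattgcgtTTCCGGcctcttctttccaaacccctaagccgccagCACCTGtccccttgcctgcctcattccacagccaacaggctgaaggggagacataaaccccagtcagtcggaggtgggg
Chrne, chr10:55834155-55834284, minus strand: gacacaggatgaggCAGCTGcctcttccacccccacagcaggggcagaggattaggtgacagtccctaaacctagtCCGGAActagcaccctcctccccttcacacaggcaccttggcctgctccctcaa
Chrng, chr9:95325854-95325986, plus strand: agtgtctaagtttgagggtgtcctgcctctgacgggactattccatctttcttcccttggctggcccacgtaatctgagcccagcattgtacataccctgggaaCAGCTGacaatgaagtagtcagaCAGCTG

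The Chrna1 and Chrnb1 windows hold 3 and 2 of these E-boxes. Chrng holds 2, one of them across the transcript start at bases -3 to +3, and Chrnd and Chrne hold 1 each. The N-box was found in Chrnd and Chrne, at bases -115 and -54, in 0 of 5 neuronal promoters and in 15.0% of all promoters. CAGCTG alone was held by 4 of 5 muscle and 0 of 5 neuronal promoters against 15.1% of all, and CAGGTG alone by 3 of 5 and 2 of 5 against 18.8%. The loose form CANNTG, which includes both, was in 5 of 5 muscle and 4 of 5 neuronal promoters and in 72.1% of all. All motifs were searched on both strands.

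The neuronal promoters shared the GC box GGGCGG, the motif of Sp1 and its relatives, which 5 of 5 held with 10 matches. Of the muscle promoters only that of Chrnb1 held it, printed above in small letters, and the share over all promoters was 33.1%. Chrna3, Chrnb4 and Chrnb2 are shown with the GC box or its reverse complement in capitals.
Chrna3, chr8:64311252-64311381, minus strand: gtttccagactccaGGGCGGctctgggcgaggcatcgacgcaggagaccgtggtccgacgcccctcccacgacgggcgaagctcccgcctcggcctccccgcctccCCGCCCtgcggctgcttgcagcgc
Chrnb4, chr8:64333110-64333239, minus strand: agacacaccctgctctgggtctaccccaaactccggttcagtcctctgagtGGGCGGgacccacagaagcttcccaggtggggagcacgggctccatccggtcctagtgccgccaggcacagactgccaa
Chrnb2, chr2:177487307-177487436, minus strand: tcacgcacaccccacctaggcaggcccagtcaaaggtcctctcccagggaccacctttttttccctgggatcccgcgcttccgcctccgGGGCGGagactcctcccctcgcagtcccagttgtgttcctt

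The motif of REST, called RE1, has a left and a right part, searched here as CAGCACC and GGACAG. Neither was found in the 5 neuronal promoters, while 6.78% and 21.7% of all promoters held them. Among the muscle genes Chrnd and Chrng held both parts and Chrna1 the right part. In Chrnd the left part (bases -82 to -76) and the right part (bases -76 to -71) share a base with each other and letters with the E-box at bases -79 to -74. The parts set 2 bases apart, as in a full RE1, were found in 0 of the 10 genes and in 10 of all promoters (0.0299%). RE1 sites often lie outside promoters, and only these windows were searched.

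**Figure D1:**
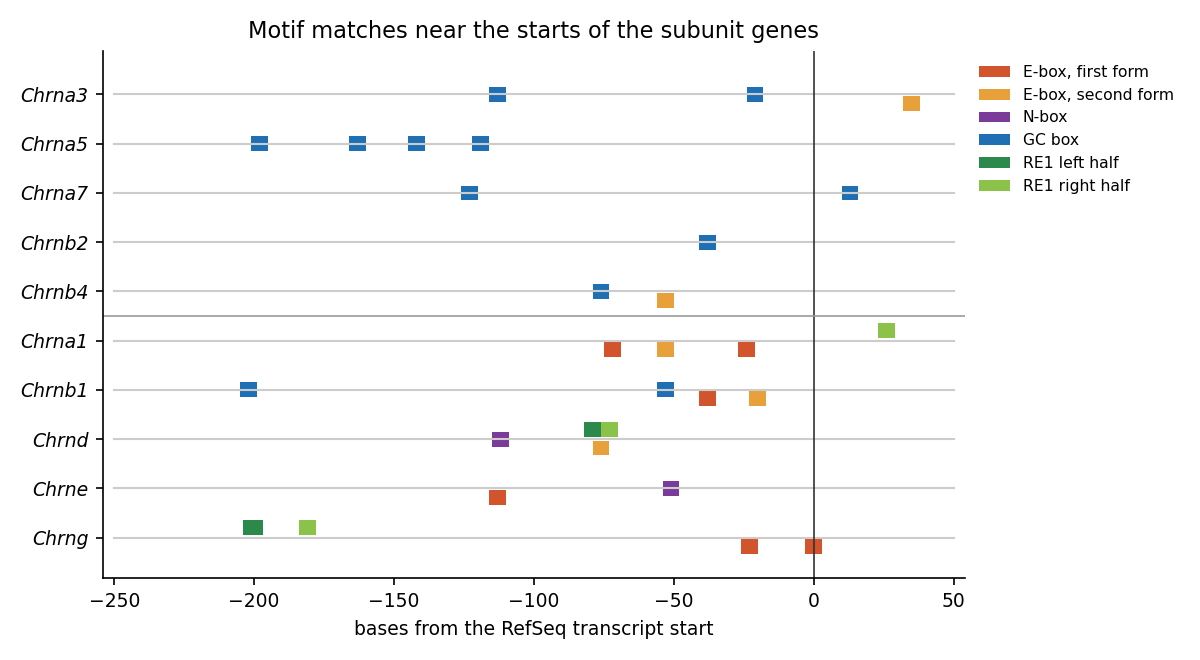
Motif matches by gene. Each grey line is 1 promoter from 250 bases before to 50 bases after the RefSeq start, on the x axis in bases, and the coloured boxes are matches on either strand (the first E-box form is CAGCTG and the second CAGGTG). E-boxes lie mostly in the lower 5 lines, the muscle genes, with 9 of 11 matches, and GC boxes in the upper 5, the neuronal genes, with 10 of 12.

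The libraries held 20975027 and 21999191 reads on genes in wtPC12 and 27246502 and 21634943 in hrPC12. Counts were normalized to the mean effective library size with TMM factors (0.942 to 1.05), and on this scale 3 reads, taken as the floor of detection, correspond to 2.54 to 3.49. Rest had 37 and 128 reads in wtPC12 and 1139 and 904 in hrPC12, a log2 fold change (hrPC12 over wtPC12, log2 FC) of 3.42. Its adjusted p was 0.0115 in edgeR's quasi-likelihood test (Benjamini-Hochberg correction over all tested genes, given below as edgeR). The direction follows the labels but this adjusted p is above 0.01. In edgeR it was 0.00207 with RLE factors, 0.00356 with library totals, 0.00145 with every gene tested and 0.00918 with the legacy option off. DESeq2 gave 1.89e-10. It stayed above 0.01 with the filterByExpr filter (0.0109), a prior count of 2 (0.0115) and glmTreat (0.103), all from edgeR. With each library left out the log2 FC was 2.80 to 4.44. A gene was called differentially expressed (DE) where its log2 FC lay beyond 2 in either direction and its adjusted p below 0.01. By this rule hrPC12 had 749 downregulated genes among the 13726 tested (5.46%) and 665 upregulated ones (4.84%), and in 73.5% of tested genes the values of the clones did not overlap.

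All 5 neuronal subunits were downregulated in hrPC12, against 5.46% of all tested genes, and none of the muscle subunits passed the thresholds in either direction. The log2 FC of the neuronal subunits ran from -8.04 to -2.65 with a median of -5.59. The 3 muscle subunits that could be tested ran from -2.30 to 1.16 with a median of -0.11, while the median over all tested genes was 0.06. Chrnd was too low for the test in both clones and Chrng had no read in wtPC12. In 5 of 5 neuronal genes both wtPC12 libraries lay above both hrPC12 libraries, where 73.5% of all tested genes had no overlap in one direction or the other. Without wtPC12 replicate 2 edgeR called 0 of the 13726 genes, of which 6942 had an unadjusted p under 0.05, and the neuronal subunits had adjusted p values of 0.0130 to 0.0237 with log2 FC values of -7.11 to -2.39.

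**Figure D2:**
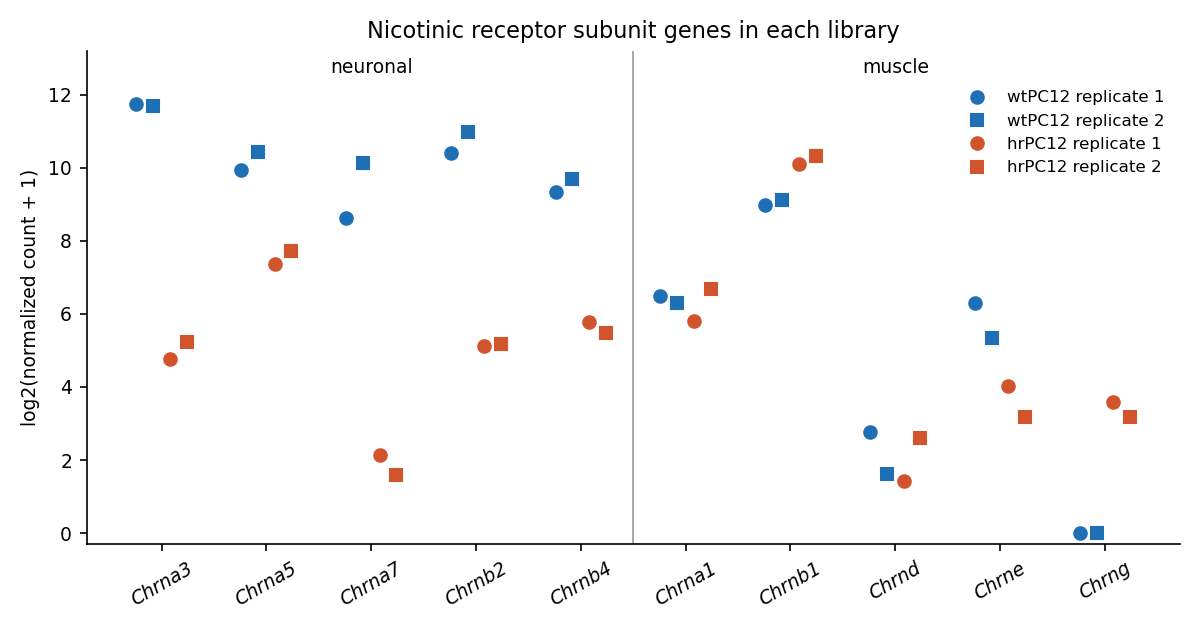
Normalized counts of the 10 subunit genes, on the y axis as log2(normalized count + 1), with 1 point per library (circle, replicate 1, and square, replicate 2). In the 5 neuronal genes the wtPC12 points (blue) stand apart above the hrPC12 points (orange), whereas among the muscle genes only Chrnb1 and Chrng have hrPC12 points above and Chrne wtPC12 points above.

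Chrna3, the alpha subunit of the ganglionic receptor, had 3394 and 3289 normalized counts in wtPC12 and 26.2 and 36.4 in hrPC12. Its log2 FC was -6.74 ± 0.28 (SE, n = 2 per clone, adjusted p = 0.000298, edgeR), a 107-fold decrease that left 0.938% of the wtPC12 level. The libraries of each clone lay close together, and the 95% interval of the log2 FC ran from -7.44 to -6.03. In hrPC12 the gene rested on 31 and 36 reads, still above the floor of 3 reads.

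Chrnb4, the beta subunit that pairs with alpha3, had 647 and 823 normalized counts in wtPC12 against 54.2 and 43.5 in hrPC12. It fell 15.0-fold (log2 FC -3.91 ± 0.31, adjusted p = 0.00131, edgeR). Chrna5, the accessory subunit, had 981 and 1369 in wtPC12 and 163 and 211 in hrPC12, a 6.28-fold decrease (log2 FC -2.65 ± 0.30, adjusted p = 0.00361, edgeR). Of the neuronal genes it kept the highest share of its wtPC12 level, 15.9%, against 6.65% for Chrnb4.

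Chrnb2 had 1340 and 2012 normalized counts in wtPC12 and 33.9 and 35.4 in hrPC12, and fell 48.2-fold (log2 FC -5.59 ± 0.33, adjusted p = 0.000686, edgeR). Chrna7, the subunit of the homomeric receptor, had 397 and 1122 in wtPC12 and 3.39 and 2.02 in hrPC12. The hrPC12 values rest on 4 and 2 reads, at about the floor, and the wtPC12 libraries differed from each other by 1.50 on the log2 scale. The log2 FC of Chrna7 was -8.04 ± 0.80 (95% interval -10.09 to -6.00, adjusted p = 0.00253, edgeR), the widest interval of the 5 genes. One more neuronal subunit gene outside the set, Chrna2, had 39 and 52 reads in wtPC12 and none in hrPC12, which makes it at least 17.7-fold lower against a floor of 3 reads per library. The remaining neuronal subunits in the counts, Chrna4, Chrna6, Chrna9, Chrna10 and Chrnb3, had 0 to 2 reads in every library.

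The decreases were unequal, and the makeup of the neuronal subunit reads differed between the clones. Chrna3 took 50.2% and 38.2% of these reads in wtPC12 and 9.37% and 11.1% in hrPC12, and Chrna5 14.5% and 15.9% in wtPC12 but 58.0% and 64.3% in hrPC12. The log2 ratio of Chrna5 to Chrna3 reads was -1.79 and -1.26 in wtPC12 and 2.63 and 2.54 in hrPC12, a separation between the clones far wider than that within them. These are shares of reads, not corrected for transcript length, so they compare the clones and not the genes with one another. The 95% intervals of the log2 FC of Chrna5 (-3.41 to -1.89) and Chrna3 do not overlap, whereas that of Chrnb4 (-4.70 to -3.11) overlaps with that of Chrna5.

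Chrna5, Chrna3 and Chrnb4 lie next to each other on rat chromosome 8, which allows a comparison with the genes on either side. Neighbours were taken in the RefSeq order of GRCr8 among genes in the counts, and RefSeq genes absent from the counts were skipped. In this order the cluster is flanked by Ireb2 and Psma4 on one side and Fbxo22 and Etfa on the other. Psma4, a proteasome subunit, had a log2 FC of -0.38 (adjusted p = 0.249), Fbxo22 of -0.67 (adjusted p = 0.0845) and Ireb2 of 0.87 (adjusted p = 0.132), all from edgeR, and none of the 4 flanking genes passed the thresholds. Among the genes of this stretch that are in the counts, only the 3 receptor genes were DE. None of the tested neighbours of Chrnb2 passed either, and Kcnn3, a potassium channel gene, came closest with a log2 FC of -2.36 and an adjusted p of 0.0304 (edgeR). It did pass with RLE factors (-2.39), with every gene tested (-2.36), with DESeq2 (-2.39) and without wtPC12 replicate 1 (-2.98) or hrPC12 replicate 1 (-2.39), while without wtPC12 replicate 2 its log2 FC was -1.34.

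Chrna7 differed in this respect. Its neighbour Otud7a, a deubiquitinase gene, had 585 and 963 reads in wtPC12 and 1 and 4 in hrPC12 and fell by 8.41 on the log2 scale (adjusted p = 0.00110, edgeR), and Mkrn3 on the other side, with 139 and 141 against 1 and 3 reads, fell by 6.27 (adjusted p = 0.00206, edgeR). Klf13, beyond Otud7a, had a log2 FC of 0.40 (adjusted p = 0.610, edgeR). Peg12, which lies between Mkrn3 and Chrna7, had no read in any library. At Chrna7 the decrease was therefore shared by the nearest tested gene on each side.

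**Figure D3:**
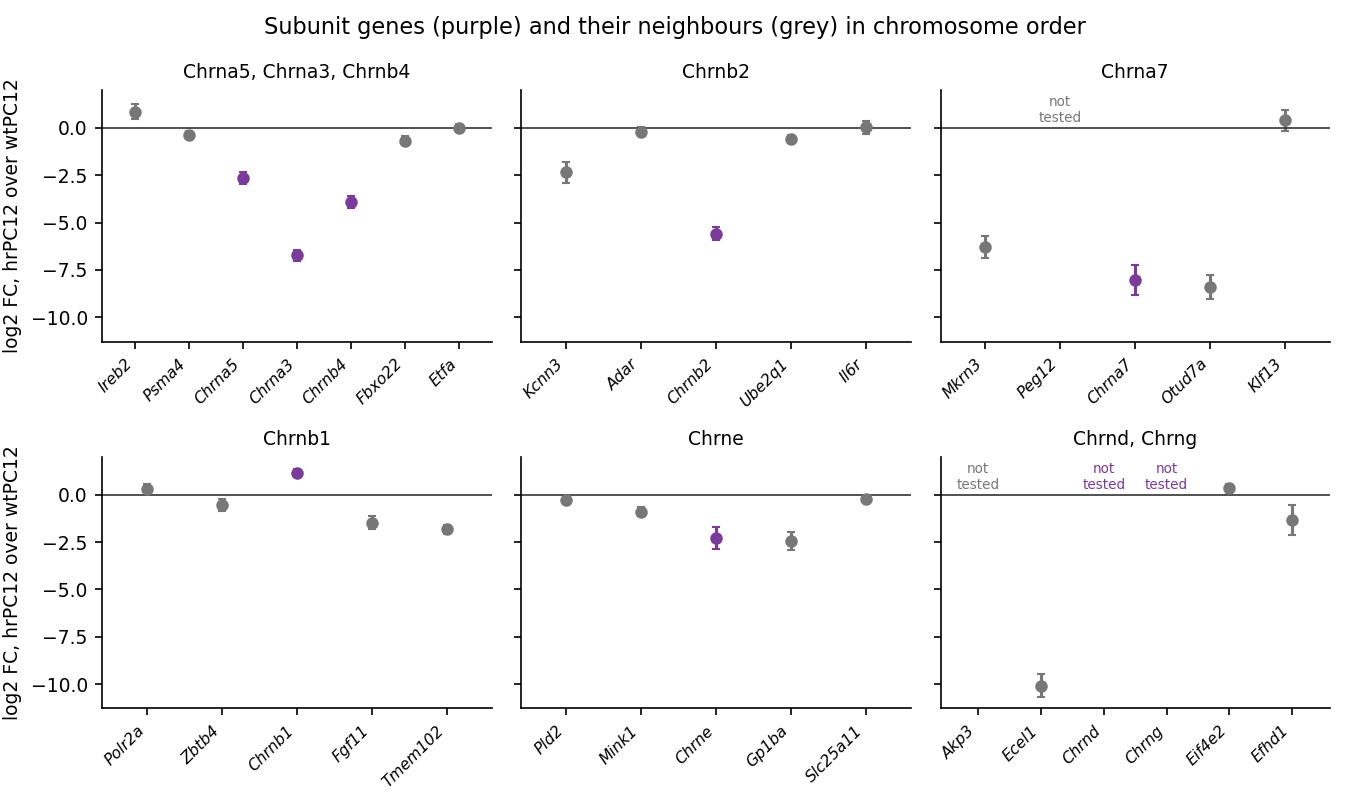
Log2 FC (hrPC12 over wtPC12, y axis, error bars are the SE) of subunit genes in purple and of up to 2 neighbours on each side in grey. Genes follow the RefSeq order of GRCr8, with genes absent from the counts skipped. The cluster of Chrna5, Chrna3 and Chrnb4 drops between neighbours within 1 of 0, while Chrna7 lies beside Otud7a at -8.41 and Chrnd beside Ecel1 at -10.09.

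Chrnb1, the beta subunit of the muscle receptor, held most of the muscle subunit reads, which are not corrected for length. It had 507 and 556 normalized counts in wtPC12 and 1107 and 1274 in hrPC12, so that both hrPC12 libraries lay above both wtPC12 libraries. The log2 FC was 1.16 ± 0.21 (95% interval 0.62 to 1.70), or 2.24-fold, with an adjusted p of 0.0155 (edgeR), short of both thresholds. DESeq2 gave an adjusted p of 0.000537 at a log2 FC of 1.13, short of the fold threshold only, while edgeR's adjusted p stayed above 0.01 under every alternative. Chrnb1 overlaps Zbtb4 in RefSeq, whose log2 FC was -0.54 (adjusted p = 0.227, edgeR).

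Chrna1, which carries the main acetylcholine binding site of the muscle receptor, had 89.6 and 78.3 normalized counts in wtPC12 and 55.0 and 101 in hrPC12. The clones overlapped, with the highest and the lowest value both in hrPC12. Its log2 FC was -0.11 ± 0.42 (adjusted p = 0.857, edgeR), and the 95% interval from -1.18 to 0.97 leaves room for a change of either sign of about the size of that of Chrnb1. Without hrPC12 replicate 1 the log2 FC was 0.27. Chrnd, the delta subunit, stood at 5.82 and 2.06 normalized counts in wtPC12 and 1.69 and 5.06 in hrPC12, which are 5, 2, 2 and 5 reads, so that no difference was detectable at this depth.

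The gamma and epsilon subunits, which alternate in the fetal and the adult muscle receptor, differed in which clone held more reads, both at low counts. Chrng had no read in either wtPC12 library and 13 and 8 reads in hrPC12, or 11.0 and 8.09 normalized counts, at least 2.90-fold higher against a floor of 3 reads per library. Chrne had 77.9 and 39.1 normalized counts in wtPC12 and 15.2 and 8.09 in hrPC12, a log2 FC of -2.30 ± 0.58 with an adjusted p of 0.0373 (edgeR), and both wtPC12 libraries lay above both hrPC12 libraries. Without hrPC12 replicate 1 it passed the thresholds, at -2.83 and an adjusted p of 0.00656 (edgeR).

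As a share of the reads of both genes, gamma was 0 of 67 and 0 of 38 reads in wtPC12, which allows shares of up to 4.48% and 7.89% where 3 reads are taken as the limit of a count of 0, and of up to 5.42% and 9.18% by the 95% Wilson interval. In hrPC12 it was 13 of 31 reads, or 41.9% (95% Wilson interval 26.4% to 59.2%), and 8 of 16 reads, or 50% (28.0% to 72.0%). The hrPC12 intervals lie above both kinds of wtPC12 limit, and all of them cover counting error only. Chrne overlaps Gp1ba, a platelet gene, in RefSeq, and the library kit does not mark strand. Reads of the pair cannot be told apart by strand where the genes overlap. Reads that the counting placed in more than 1 gene were set aside and are in neither gene's count. The overlap is that of GRCr8, and the gene models used for counting on rn4 were not examined. Gp1ba itself had 30 and 45 reads in wtPC12 and 10 and 6 in hrPC12 (log2 FC -2.45, adjusted p = 0.0184, edgeR).

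No muscle subunit was DE in the upward direction by edgeR's quasi-likelihood test. Of the 3 tested, 1 (Chrnb1) was higher and 1 (Chrne) lower at an unadjusted p under 0.05, where 23.6% of all tested genes were higher and 22.7% lower, and DESeq2 also put 0 past both thresholds. When every gene with at least 1 read was tested, Chrng had an adjusted p of 0.0206 and Chrnd of 0.883 in edgeR's quasi-likelihood test, and the count stayed at 0.

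In sum over the genes of each class, the neuronal subunits had 5810 and 8363 reads in wtPC12 and 331 and 325 in hrPC12, and the muscle subunits 585 and 656 in wtPC12 and 1406 and 1380 in hrPC12. The neuronal share of these reads was 90.9% (95% Wilson interval 90.1% to 91.5%) and 92.7% (92.2% to 93.2%) in wtPC12, and 19.1% (17.3% to 21.0%) in each hrPC12 library. Chrnb1 alone made up 74.5% and 82.3% of the muscle reads in wtPC12 and 93.0% and 91.2% in hrPC12. Without it, the muscle subunits summed to 173 and 119 normalized counts in wtPC12 and 83.0 and 122 in hrPC12, values that overlap. In bulk RNA, fewer cells expressing a gene and less RNA per cell cannot be told apart.

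**Figure D4:**
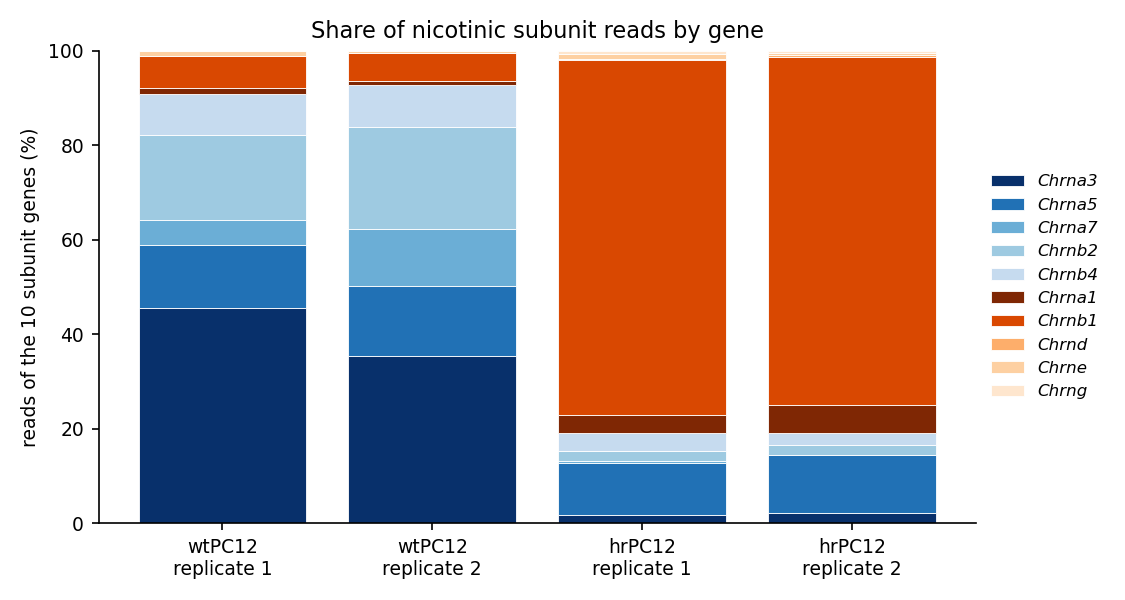
Share of the reads of the 10 subunit genes that fell on each gene, in percent of raw reads per library, with neuronal genes in blue and muscle genes in orange and brown. The blue part takes 90.9% and 92.7% in the wtPC12 libraries and 19.1% in both hrPC12 libraries, where Chrnb1 takes 75.3% and 73.8%.

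Some of the genes that gather the muscle receptor under the nerve ending were upregulated. Of 13 tested members of a list of 15 such genes, 4 were upregulated, 0 downregulated and 9 passed in neither direction, with a median log2 FC of 1.37. Over all tested genes 4.84% were upregulated and 5.46% downregulated. Musk, the receptor kinase that agrin activates through Lrp4, had 1 and 2 reads in wtPC12 and 1974 and 1655 in hrPC12, a ratio of summed normalized reads of 1020 with an exact counting interval of 349 to 4950. Rapsn, the scaffold that binds the receptor inside the cell, had 28 and 23 reads in wtPC12 and 5614 and 4778 in hrPC12 (log2 FC 7.41 ± 0.26, adjusted p = 0.000261, edgeR).

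Lrp4 had 49 and 94 reads in wtPC12 and 1958 and 1671 in hrPC12 and rose 21.7-fold (log2 FC 4.44, adjusted p = 0.00121, edgeR). Dtna, which encodes the scaffold protein alpha-dystrobrevin, rested on 1 read in wtPC12 and on 133 and 45 reads in hrPC12, with a ratio of 150 and a counting interval of 26.6 to 5960, and without wtPC12 replicate 1 its adjusted p was 0.0198 (edgeR). The remaining tested members did not pass. Agrn, which encodes agrin, had a log2 FC of 1.37 (adjusted p = 0.0417), Utrn, which encodes utrophin, of 1.83 (adjusted p = 0.0671) and Dok7, the adaptor of MuSK, of 0.22 (adjusted p = 0.790, on 4 to 8 reads), all from edgeR.

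Myod1 and Myog, whose proteins act on muscle receptor genes through E-boxes, were among the upregulated genes. Of 14 tested myogenic regulators 3 were higher and 1 lower, with a median log2 FC of 0.32. Among all tested genes 4.84% were higher and 5.46% lower, so 1 lower of 14 is near the general share. Myod1 had 10 and 11 reads in wtPC12 and 3849 and 3534 in hrPC12 (log2 FC 8.20 ± 0.26, adjusted p = 0.000243, edgeR). Myog, which encodes myogenin, had 0 and 1 against 86 and 83 reads, a ratio of 143 (counting interval 25.2 to 5660), and Mef2c 1 and 0 against 362 and 287, a ratio of 548 (97.9 to 21700).

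Id1, an inhibitor that binds the E-box partners of MyoD and myogenin, was the downregulated member. Its log2 FC was -2.11 (adjusted p = 0.00800, edgeR), close to the fold threshold. Without wtPC12 replicate 1 the log2 FC was -1.70 and without hrPC12 replicate 1 it was -1.98. Of 6 tested genes of the pathway by which the nerve drives receptor genes in synaptic nuclei, Nrg1, which encodes neuregulin, was upregulated, from 5 and 2 to 2767 and 2012 reads (log2 FC 9.11, adjusted p = 0.000427, edgeR). In this list 1 gene was upregulated, 0 were downregulated and 5 passed in neither direction, with a median log2 FC of 0.79. The receptor gene Erbb2 had a log2 FC of 1.78 (adjusted p = 0.00528, edgeR), inside the fold threshold. Gabpa and Gabpb1 had 0.87 and 0.71. Etv5 and Erbb3 went the other way, at -0.97 (adjusted p = 0.0201) and -0.54 (adjusted p = 0.346), both from edgeR. The share upregulated over all tested genes was 4.84%. The E-boxes of the promoters printed above and the levels of Myod1 and Myog are given side by side, and binding was not measured.

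Regulators known from neuronal receptor genes were in part downregulated. Of 8 tested, 3 were downregulated and 0 upregulated, against 5.46% and 4.84% of all tested genes, with a median log2 FC of -1.41. Phox2a, a factor of autonomic neurons, had 16293 and 17101 reads in wtPC12 and 464 and 431 in hrPC12 (log2 FC -5.46 ± 0.21, adjusted p = 0.000266, edgeR). Gata2 fell by 2.02 on the log2 scale (adjusted p = 0.00195, edgeR), at the edge of the fold threshold, and without hrPC12 replicate 1 its log2 FC was -1.93.

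Isl1 had a log2 FC of -1.97 (adjusted p = 0.0196) and Sp3, whose protein binds GC boxes, of 1.07 (adjusted p = 0.0408), neither past both thresholds in edgeR's quasi-likelihood test, although Isl1 passed with RLE factors (-2.02), with DESeq2 (-2.02) and without hrPC12 replicate 1 (-2.43). Sp1, for which the GC box was named above, had a log2 FC of 0.11 (adjusted p = 0.757, edgeR), and its values overlapped between the clones. Among 6 tested genes for receptor assembly and modulation, 2 were downregulated and 0 upregulated, with a median of -1.05. Over all tested genes the shares were 5.46% and 4.84%. Tmem35, whose product NACHO helps alpha7 and other neuronal receptors to assemble, had 1624 and 1477 reads in wtPC12 and 230 and 105 in hrPC12 (log2 FC -3.50, adjusted p = 0.00315, edgeR). Lynx1, a modulator of neuronal receptors, fell by 3.07 on the log2 scale (adjusted p = 0.00997, edgeR), just inside the threshold, and without wtPC12 replicate 1 its adjusted p was 0.0276 (edgeR). Ric3, another chaperone of alpha7, had a log2 FC of -2.07 (adjusted p = 0.0246) and Creld2 of 1.72 (adjusted p = 0.0157), both from edgeR, and neither was DE, although Creld2 passed without hrPC12 replicate 2 (2.01). Ric3 passed with RLE factors (-2.11), with every gene tested (-2.07), with DESeq2 (-2.11) and without wtPC12 replicate 1 (-2.51) or hrPC12 replicate 1 (-2.22), while without wtPC12 replicate 2 its log2 FC was -1.48.

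**Figure D5:**
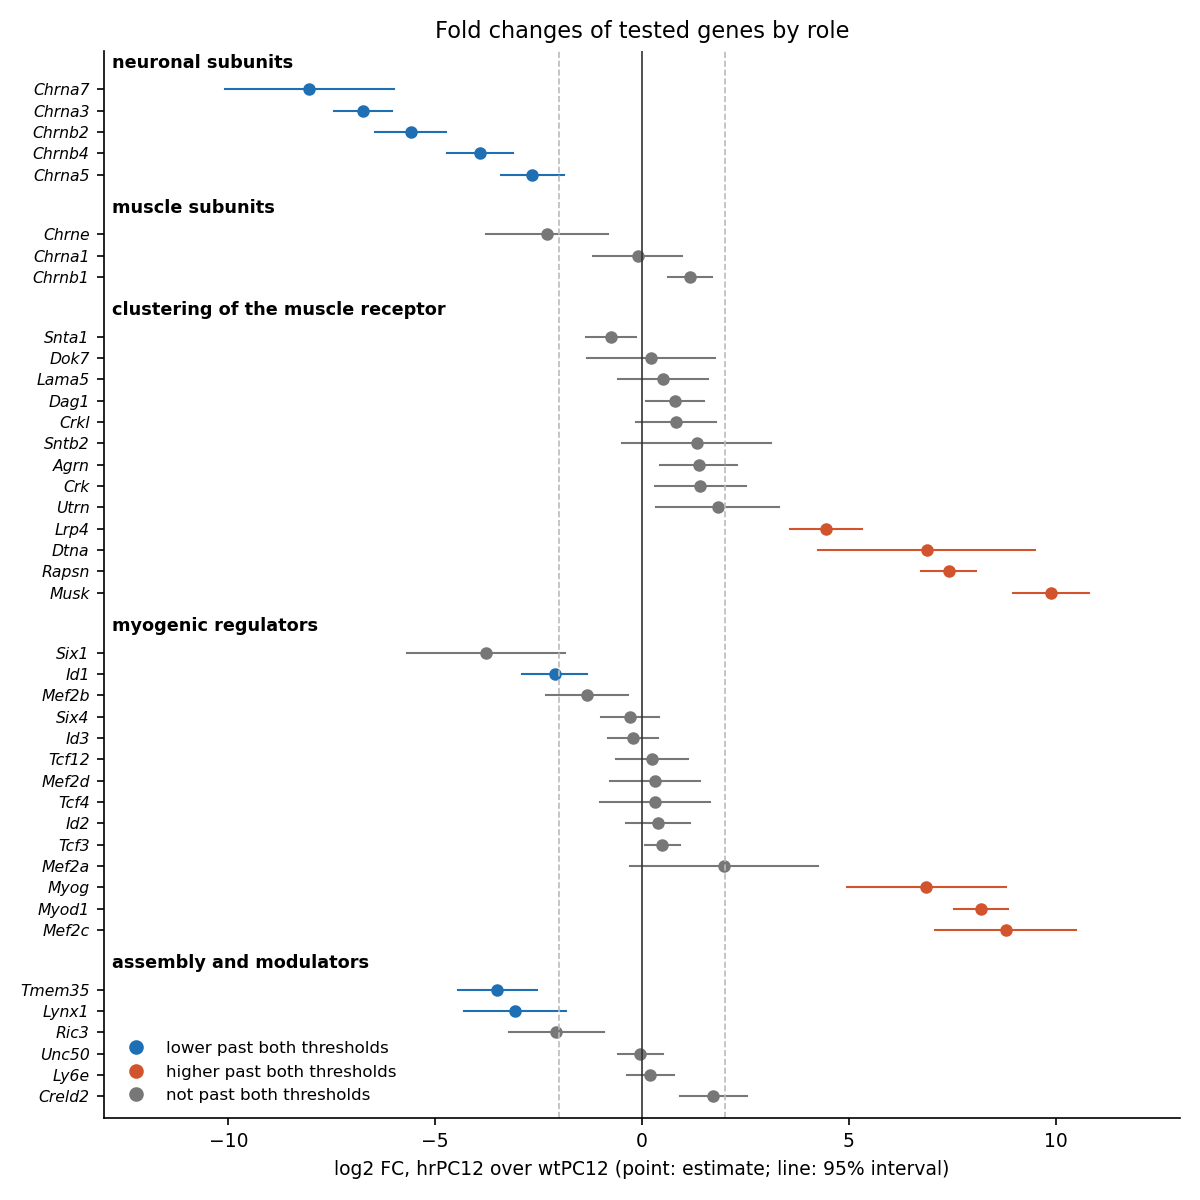
Log2 FC (hrPC12 over wtPC12, x axis) with its 95% interval for the tested genes of 5 groups, blue for lower and orange for higher past both thresholds and grey for the rest. The dashed lines stand at -2 and 2. The 5 neuronal subunits lie left of -2, the muscle subunits Chrne, Chrna1 and Chrnb1 at -2.30, -0.11 and 1.16 (all grey), and Musk and Rapsn far to the right at 9.89 and 7.41.

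Muscle genes were in part higher in hrPC12. Of 15 tested skeletal muscle markers 8 were upregulated and 1 downregulated, against 4.84% and 5.46% of all tested genes. Their summed level was 545 to 731 normalized counts in wtPC12 and 6457 to 6557 in hrPC12. Myh2, a myosin heavy chain, rose from 65 and 54 to 4692 and 3841 reads, while Actn2, an actinin of the Z disc, fell from 229 and 212 to 11 and 9. Chromaffin markers moved the other way, with 5 of 7 downregulated and 0 upregulated and a summed level of 798077 to 934889 in wtPC12 and 45536 to 49963 in hrPC12.

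Fibroblast markers were higher in 4 of 7 tested genes and lower in 0, their summed level being 16317 to 18101 in wtPC12 and 93291 to 97841 in hrPC12, led by Col3a1, a collagen gene, with 83 to 89 against 87112 to 98991 reads. In wtPC12 most of that sum was Thy1, with 15413 and 15713 reads against 10078 and 8573 in hrPC12 (log2 FC -0.99, adjusted p = 0.0137, edgeR), and Dcn, which encodes decorin, had 31 and 21 against 3 and 4 reads (log2 FC -3.10, adjusted p = 0.0182, edgeR). For Schwann cells 1 of 2 tested markers was higher (summed level 277 to 366 and 22850 to 24832), and Sox10 had no read in any library. White blood cell markers summed to 38.1 to 40.7 in wtPC12 and 86.3 to 97.1 in hrPC12, with 0 of 2 tested past the thresholds in either direction. Over all tested genes 4.84% were higher and 5.46% lower past the thresholds. The part of these marker changes in the receptor results was not tested.

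The genes whose pattern over the 4 libraries was most like that of Chrna3 were Gpr22, RGD1564463 and Fam148a, with a root mean square difference of centred log2 values of 0.0977, 0.110 and 0.119. For Chrna1 they were Casq1, F1LNL8_RAT and LOC298795, at 0.0632, 0.0633 and 0.0718. With 2 libraries per clone, likeness to Chrna3 is mostly a decrease of the same size, as in Gpr22 with a log2 FC of -6.82.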

How the data were processed

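RNA of 2 wtPC12 and 2 hrPC12 libraries (unstranded kit, paired-end) was aligned by the authors to the rat build rn4, and the deposited values are raw read counts per gene, without normalization. The submitters' processing notes name TopHat2 2.0.4, HTSeq 0.5.3 and DESeq 1.9.12. Their table of means, fold changes and p values per gene was not used. The 5 closing totals of reads off genes were left out (37.9% to 41.3% of reads fell on genes). Replicates were not copies of each other (chi-square per degree of freedom of 82.4 and 59.4).

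In R 4.3.3, counts were scaled with edgeR 4.0.16 TMM factors. Genes whose normalized counts averaged 5 or more, with reads in each clone, were tested with edgeR's quasi-likelihood test (glmQLFit with the legacy option, limma 3.58.1), intercept and clone, and Benjamini-Hochberg adjustment over all 13726. The same steps were tested on simulated data. DE required a log2 FC beyond 2 and an adjusted p below 0.01. Alternatives were RLE factors, library totals, other filters, DESeq2 1.42.0, glmTreat, the legacy option off, a prior count of 2, each library left out and an adjusted p threshold of 0.05.

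The members and gene lists were chosen with earlier results of these data known. Named were all members, genes of the lists (called ones first, then by size of log2 FC), 2 neighbours on either side and the 3 genes most like Chrna3 and Chrna1; marker, Agrn, Dok7, Sp3 and other uncalled list genes were picked by role after their values were seen. List symbols were matched by name or RefSeq synonym. Promoter sequences and gene order are from RefSeq, GRCr8, with no coordinate converted to rn4. RefSeq genes absent from the counts were skipped when neighbours were taken. Shares of reads carry 95% Wilson intervals. Some genes of the lists are not reported here.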

Additional observations from a re-analysis of the deposited data

How the results depend on the processing

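The count of 5 downregulated subunits was 4 under glmTreat at a log2 FC of 2, which did not call Chrna5 (adjusted p = 0.109), and 6 at an adjusted p under 0.05, with Chrne added. With each library left out in turn it ranged from 0 to 6. The 0 came without wtPC12 replicate 2, where edgeR's quasi-likelihood test called 0 of 13726 genes in either direction (lowest adjusted p 0.0130), although 6942 genes had an unadjusted p under 0.05. There the 5 neuronal subunits had log2 FC values of -7.11 to -2.39 and adjusted p values of 0.0130 to 0.0237. The lone wtPC12 library is then assumed to vary like the hrPC12 pair. The count of upregulated subunits was 0 under every alternative run.

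Over all genes the 749 lower and 665 higher became 353 and 321 under glmTreat, the higher ones 1127 when every gene with at least 1 read was tested and 1088 at an adjusted p under 0.05, and both ranged from 0, to 920 and 957, with a library left out. With a library left out, the log2 FC turned sign for Chrna1 (-0.65 to 0.27) and Casq1 (-0.65 to 0.16), both without hrPC12 replicate 1, for Dok7 (-0.11 to 0.60) without wtPC12 replicate 2 and for Klf13 (-0.23 to 1.43) without wtPC12 replicate 1. Leaving out libraries, added after the data were seen for the shares, moved the difference in neuronal share between the clones from -73.7 to -71.8 percentage points and that in gamma share from 41.9 to 50. Of 551 other values of 46 named genes, 488 kept their call and direction. The cause of these shifts was not tested.

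No paired analysis was possible because the labels of the clones share fewer than 2 replicate numbers, and the numbers 1 and 2 used here only name the libraries in the order listed. Shares per kb of coding length were not run, since no coding lengths were used here. Depth limits Chrnd, Chrng and Chrne, and Chrna7 in hrPC12.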

Other observations

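Of the tested genes of acetylcholine synthesis, release and breakdown, 1 of 2 was downregulated in hrPC12, against 5.46% of all tested genes. Slc18a3, the vesicular acetylcholine transporter, had 391 and 271 reads in wtPC12 and 2 and 2 in hrPC12 (log2 FC -7.54, adjusted p = 0.00100, edgeR). Prima1, which encodes the membrane anchor of acetylcholinesterase, had 0 and 2 reads in wtPC12 and 13 and 12 in hrPC12, a ratio of 10.5 with a counting interval of 2.63 to 91.9 and an adjusted p of 0.0525 (edgeR). Htr3a, which encodes a serotonin-gated channel of the same receptor superfamily, fell from 1552 and 1291 to 106 and 113 reads (log2 FC -3.94, adjusted p = 0.00115, edgeR). The muscarinic receptor gene Chrm4, coupled to a G protein, had 830 and 949 reads in wtPC12 and 329 and 315 in hrPC12, with a log2 FC of -1.70 (adjusted p = 0.00581, edgeR) inside the fold threshold.

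Chrnd had 2 to 5 reads in every library. The next gene in the counts on one side of it is Ecel1, a peptidase gene. Ecel1 had 3746 and 3912 reads in wtPC12 and 1 and 7 in hrPC12 (log2 FC -10.09, adjusted p = 0.000686, edgeR). On the far side of Chrng, Eif4e2 had a log2 FC of 0.34 (adjusted p = 0.276, edgeR). Tmem102, near Chrnb1, had a log2 FC of -1.82 (adjusted p = 0.00687, edgeR), opposite in sign to that of Chrnb1.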
